A study of Mus musculus with 2 samples.

Results

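Mir126a, Mir221 and Mir222 are 3 miRNA genes followed here across the stomach of the mouse embryo. They were taken by name, through the Ensembl identifiers that the GENCODE annotation pairs with these symbols, and all 3 were found among the 1973 genes counted. The material was whole stomach of strain B6NCrl embryos at 14.5 days of development, with no allele, transgene or agent named in the labels. The group held 2 biological replicates, each described as a single stomach collected on its own day, although the labels give the sex as male and female pooled. MicroRNA was sequenced from total RNA of a size range under 30 nt. No second condition was measured, so the comparisons below are between the 3 genes, between them and other miRNAs, and between the 2 libraries.

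MicroRNAs repress messenger RNAs that carry a match to their seed, bases 2 to 8 counted from the 5′ end. Mir126a lies within Egfl7, a gene of endothelial cells, and its miRNA is known to support vessel growth and integrity by repressing inhibitors of VEGF signalling such as Spred1 and Pik3r2. Mir221 and Mir222 are neighbours on the X chromosome, and their miRNAs are known to repress the receptor kinase Kit and the cell cycle inhibitor Cdkn1b (p27). In the gut wall, Kit is known as the receptor that marks interstitial cells of Cajal, the pacemaker cells of the muscle, and mast cells.

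The mature 3p sequences are shown first because the seed sets which messengers each miRNA can pair with. They are RefSeq sequences on GRCm38.p6, 5′ to 3′, with the seed in capitals.
miR-126a-3p: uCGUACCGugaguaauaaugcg
miR-221-3p: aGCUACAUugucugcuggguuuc
miR-222-3p: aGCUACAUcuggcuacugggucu
miR-221-3p and miR-222-3p have the same seed. Laid side by side without gaps from the 5′ end, their 23 bases were identical at the first 8 positions and differed first at position 9 (U9C, miR-221-3p given first). They were identical at 11 positions in all and differed at 12. The RefSeq table lists a further mature sequence for Mir221, not shown here, and none for Mir126a or Mir222. Seeds were compared within that table only, so a miRNA missing from it was not compared. The seed of miR-126a-3p occurred in no other mature miRNA of the RefSeq table. The seed of miR-221-3p and miR-222-3p occurred in 1 other, miR-1928, whose gene Mir1928 had 0 counts in both libraries, so that levels of up to 0.599 and 0.641 CPM are still possible in replicates 1 and 2.

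The precursors are shown because the deposited counts are per precursor gene and do not separate its arms. The part of the 3p arm in the level of a gene is thus not known. Capitals mark the 3p arm.
Mir126a: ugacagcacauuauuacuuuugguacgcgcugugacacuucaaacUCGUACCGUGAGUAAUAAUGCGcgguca
Mir221: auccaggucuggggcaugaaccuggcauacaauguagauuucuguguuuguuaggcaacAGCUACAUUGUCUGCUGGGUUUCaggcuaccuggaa
Mir222: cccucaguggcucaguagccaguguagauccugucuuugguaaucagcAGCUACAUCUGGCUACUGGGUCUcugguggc
Mir126a (ENSMUSG00000065540.1) lies on chromosome 2 at 26591357 to 26591429, plus strand, on GRCm38. It is intronic in 8 annotated transcripts of Egfl7 and exonic in 1, a transcript annotated as a retained intron. It also lies in an intron of the overlapping gene Gm20532. Mir221 (ENSMUSG00000065422.1) lies on chromosome X at 19146294 to 19146388 and Mir222 (ENSMUSG00000065471.1) at 19146893 to 19146971, both on the minus strand and 504 bases apart. The annotation places no other gene over either of them, and the nearest is Gm14636, a processed transcript of the same strand, 10009 bases from Mir222. The longest stretch that a precursor had in common with a precursor at another locus of the RefSeq table, on either strand, was 12 nt for Mir126a, 13 nt for Mir221 and 12 nt for Mir222. No other precursor of the table held any of the 3 mature 3p sequences.

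Because Mir221 and Mir222 are known for Kit, the sites in Kit are shown. Perfect matches to the shared seed (ATGTAGC, transcript strand) were searched in the longest 3′ UTR of each protein-coding gene of GENCODE M21. The Kit 3′ UTR, 2177 bases long, held 2 matches, each followed by A. In the lines below the capitals mark the match and the coordinates are on GRCm38, plus strand.
Kit, chr5:75654977-75654999: aatgatgggagatatATGTAGCa
Kit, chr5:75656508-75656530: tttgtaaatattgaaATGTAGCa
Cdkn1b, chr6:134924416-134924438: ctctaaaagcattggATGTAGCa
Of 7 genes looked at as known targets of miR-221-3p and miR-222-3p, 6 held at least 1 match. Ets1, an endothelial transcription factor, had 2, and Cdkn1b, Cdkn1c (p57), Timp3 (an inhibitor of matrix proteases) and Bbc3 (Puma, which promotes apoptosis) had 1 each. The transcription factor gene Foxo3 had 0. Among all 21021 3′ UTRs searched, 9.46% held the match. Their median length was 961 bases, whereas those of the 7 genes ran from 688 bases (Cdkn1c) to 4490 bases (Foxo3). A longer 3′ UTR has more places for a match, and the share was not matched for length, so enrichment was not tested.

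The corresponding match for miR-126a-3p, CGGTACG, was rare, with 33 of the 21021 3′ UTRs (0.157%) holding it. None of the 5 genes looked at for this miRNA held it, namely Spred1, Pik3r2, the adhesion molecule gene Vcam1, the insulin signalling adaptor gene Irs1 and the chemokine gene Cxcl12. A shorter match, to bases 2 to 7 followed by A (GGTACGA), was searched after this result was seen. It occurred once in Spred1 and once in Irs1, and in 0.733% of all 3′ UTRs. The 3′ UTRs of Spred1 and Irs1 are long, 4330 and 4525 bases, and this share was not matched for length either.
Spred1, chr2:117178444-117178466, plus strand: atttaactaaatgtaaGGTACGA
Irs1, chr1:82237488-82237510, minus strand: ttcctcttcagtagatGGTACGA
A match describes the reference sequence. Messenger RNA was not measured in these libraries, and repression of these genes was not tested.

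By reads that map to a single place, Mir126a was one of the most abundant miRNA genes, and Mir221 and Mir222 stood near the middle of the detected genes. Levels are counts per 1000000 counts over all genes (CPM), and genes were taken as detected from 10 counts upward in each library, which left 361. The totals over genes were 5004548 (replicate 1) and 4679914 (replicate 2). A further number of reads, amounting to 48.7% and 48.4% of those totals, mapped to several places and belong to no gene. A miRNA with several genomic copies can thus rank too low, so the ranks below hold for the counted reads only. Reads carry no molecular identifiers, so the intervals below cover counting error only.

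Mir126a had 108164 counts in replicate 1 and 89687 in replicate 2. These are 21613 CPM (95% exact binomial interval 21486 to 21741) and 19164 CPM (19040 to 19289). The mean was 20389 ± 1732 CPM (SD, n = 2), or 2.04% ± 0.17 of all gene counts, rank 11 of 361. The spread between libraries was larger than counting error, which alone would give an SD of 64.9 CPM.

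Mir221 had 1045 counts in replicate 1 and 1038 in replicate 2, which are 208.8 CPM (196 to 221.9) and 221.8 CPM (209 to 236). Its mean was 215 ± 9.18 CPM (SD, n = 2), rank 158. Counting error alone would give an SD of 6.68 CPM, and the intervals of the 2 libraries overlapped.

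Mir222 had 616 counts in replicate 1 and 653 in replicate 2, which are 123 CPM (114 to 133) and 139.5 CPM (129 to 151). Its mean was 131 ± 11.6 CPM (SD, n = 2), rank 185, and counting error alone would give an SD of 5.22 CPM. Mir126a was thus higher in replicate 1, whereas the values of Mir221 and Mir222 were higher in replicate 2. In whole stomach, fewer cells of a type and less RNA per cell cannot be told apart in such levels.

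**Figure D1:**
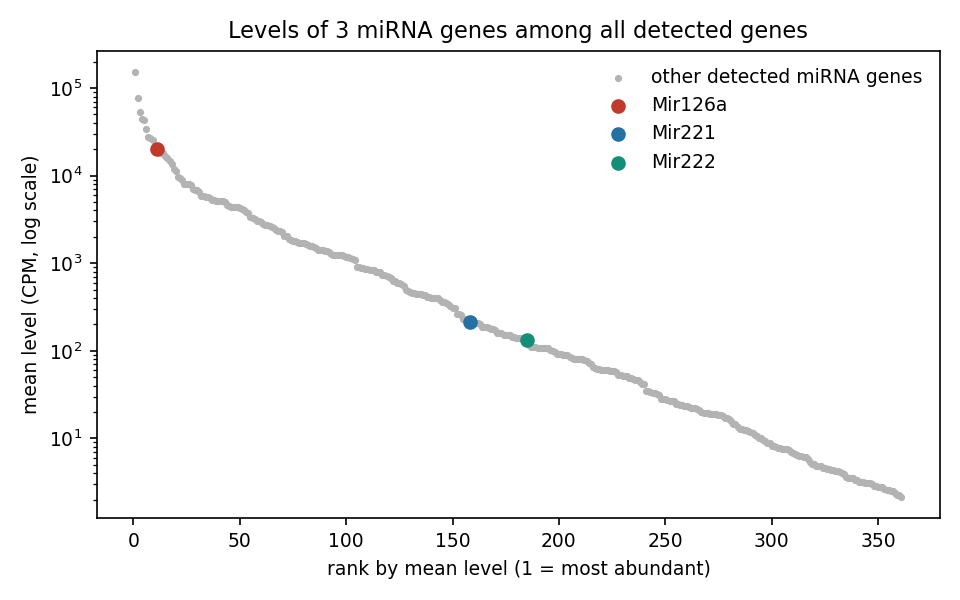
Mean level in CPM (log scale) of the 361 detected miRNA genes against their rank, over 2 libraries. Mir126a sits at rank 11, on the steep part of the curve, and Mir221 and Mir222 at ranks 158 and 185.

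Within each library the order of the 3 genes was the same, Mir126a over Mir221 over Mir222. Mir126a exceeded Mir221 103.5-fold in replicate 1 (95% exact interval 97.4 to 110) and 86.4-fold in replicate 2 (81.3 to 91.9), a log2 ratio of 6.56 ± 0.18 (SD, n = 2). It exceeded Mir222 175.6-fold (162 to 190) and 137-fold (127 to 149), a log2 ratio of 7.28 ± 0.25. Mir221 and Mir222 were the detected miRNAs of the RefSeq table with the Kit-matching seed. Their sum was 332 CPM in replicate 1 and 361 CPM in replicate 2. Mir126a exceeded that sum by a log2 ratio of 5.88 ± 0.21, or 58.8-fold. Divided by the length of the mature 3p arm, 22 nt for miR-126a-3p and 23 nt for the others, the mean folds became 98.9 over Mir221 and 162 over Mir222. The counts do not separate the arms, so this division assumes that all reads are of the 3p arm. Whether counts depend on the length of the arm was not tested, so the divided folds are no better estimate. The ratios of Mir126a were far larger than the spread between the libraries. An error shared by both libraries is not part of that spread.

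The 2 neighbours on the X chromosome differed less. Mir221 exceeded Mir222 1.70-fold in replicate 1 (1.53 to 1.88) and 1.59-fold in replicate 2 (1.44 to 1.76). The log2 ratio was 0.72 ± 0.07 (SD, n = 2), and in neither library did its interval reach 0. Mir221 made up 62.9% of their joint counts in replicate 1 and 61.4% in replicate 2. Both mature 3p arms are 23 nt long, so this ratio is the same per length of that arm. With 2 libraries no exact test of these ratios over samples could pass a threshold, and none is given.

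**Figure D2:**
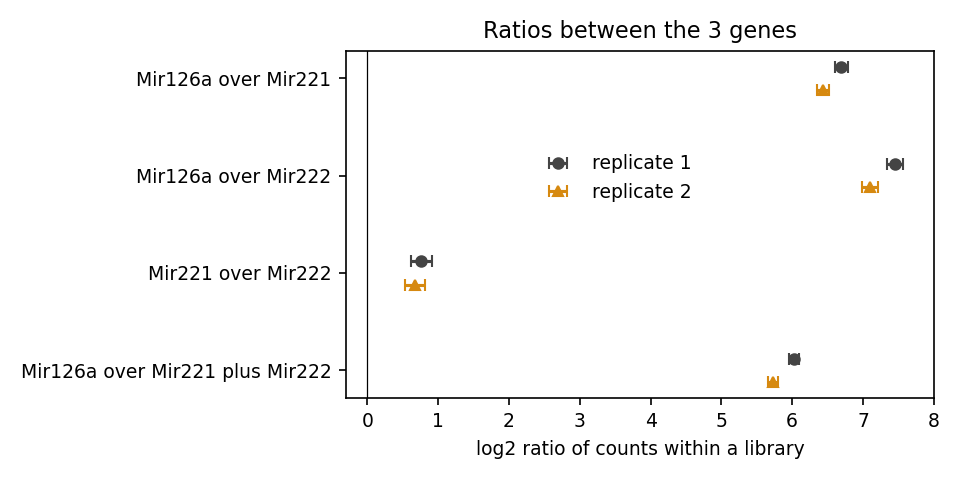
Log2 ratio of counts within each library for the 3 genes and for Mir126a over the sum of Mir221 and Mir222; points are libraries and bars are 95% exact binomial intervals. The ratio of Mir221 over Mir222 lies at 0.76 and 0.67, and the ratios of Mir126a lie between 5.73 and 7.46.

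The genes closest in level place the 3 among other miRNAs, by the difference in mean CPM over the 2 libraries. Next above Mir126a were Mir17, a proliferation-linked miRNA of the Mir17hg transcript, at 20880 ± 2469 CPM (SD, n = 2), and Mir130a at 25832 ± 642 CPM. Next below were Mir429, of the epithelial Mir200 family, at 19907 ± 932 CPM, and Mir99b at 18253 ± 518 CPM. The values of Mir17 and Mir429 overlapped those of Mir126a, so these neighbours in the order did not differ beyond their spread. Both libraries of Mir130a lay above both of Mir126a, and both of Mir99b below. In all, 9 detected genes lay above Mir126a in both libraries, 3 overlapped it and 348 lay below.

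Around Mir221 stood Mir485 (228 CPM) and Mir1306 (220 CPM) above and Mir330 (212 CPM) and Mir700 (209 CPM) below. Of these, only Mir485 was apart from Mir221 in both libraries. Around Mir222 stood Mir669c (135 CPM) and Mir673 (133 CPM) above, which overlapped it, and Mir30b (116 CPM) and Mir3074-1 (111 CPM) below, which did not. Of the counts of Mir3074-1, 272 of 535 in replicate 1 and 220 of 538 in replicate 2 were on the strand opposite to its annotation, so its level is uncertain. The libraries of 6 genes overlapped those of Mir221, and of 13 genes those of Mir222. Mir221 and Mir222 did not overlap each other.

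**Figure D3:**
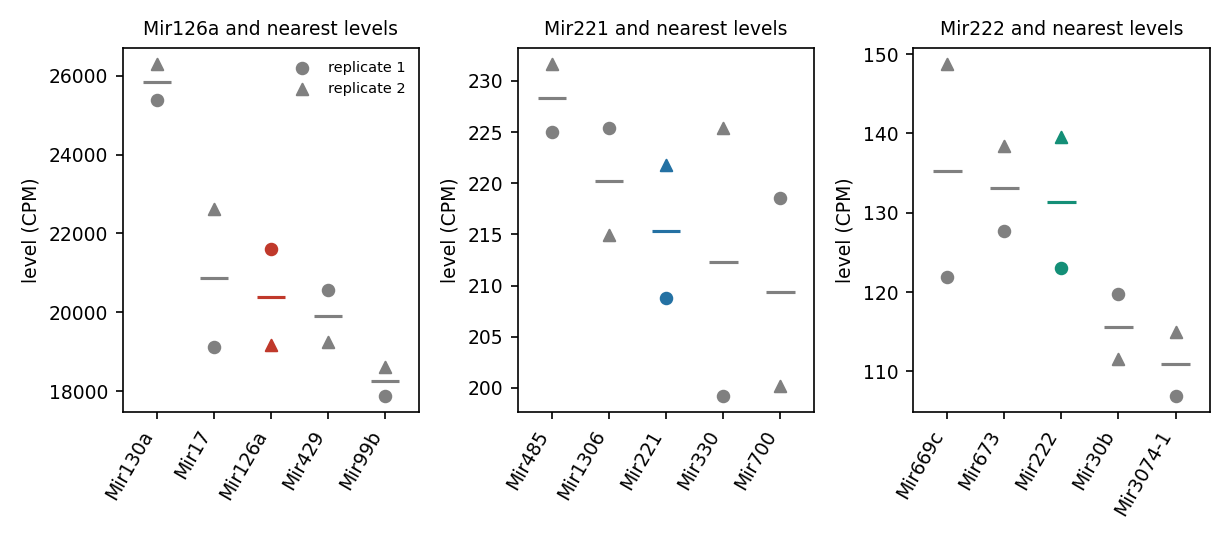
Level in CPM of each of the 3 genes and of the 2 genes next above and next below it; circles are replicate 1, triangles replicate 2 and lines the mean. The values of Mir17 span those of Mir126a and the values of Mir429 overlap them, whereas Mir130a and Mir99b lie apart from them.

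The libraries were then compared gene by gene, to ask how far each of the 3 genes varied between the replicates. The test was an exact conditional binomial test, two-sided. Its p-values were adjusted by Benjamini-Hochberg over all 361 genes detected, and a gene was called when the adjusted p fell under 0.05 and the log2 ratio was at least 1 in size. It compares these libraries and not conditions, and its p-values measure departure from counting error alone. None of the 3 genes was called, against 1.11% of detected genes. By adjusted p alone, Mir126a passed and the other 2 did not, against 42.1% of detected genes.

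Mir126a was 1.13-fold lower in replicate 2, a log2 ratio of -0.17 (-0.19 to -0.16 as its 95% interval, with p = 4.39e-155 after adjustment in the exact test). Of all detected genes, 17.5% passed by adjusted p with a lower level in replicate 2, and 24.7% with a higher one, 63 genes against 89. With DESeq2's size factors these numbers were 115 and 58, with edgeR's TMM factors 94 and 74. At this depth the 95% interval of the Mir126a ratio is narrow, and the libraries come from separate collections. Among the 196 genes of 100 CPM or more, 64 had a log2 ratio further from 0, and the SD of their log2 ratios was 0.20.

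Mir221 had a log2 ratio of 0.09 (-0.04 to 0.21 as its 95% interval, with p = 0.288 after adjustment in the exact test, and 0.288 to 0.990 over the settings tried). Its direction turned to -0.0032 with DESeq2's size factors. Mir222 had a log2 ratio of 0.18 (0.02 to 0.34 as its 95% interval). In the exact test its p was 0.0265 before and 0.0609 after adjustment, and 0.0609 to 0.413 after adjustment over the settings tried. These intervals leave room for a change of Mir222 by up to 1.27-fold between the libraries and of Mir221 by up to 1.16-fold.

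**Figure D4:**
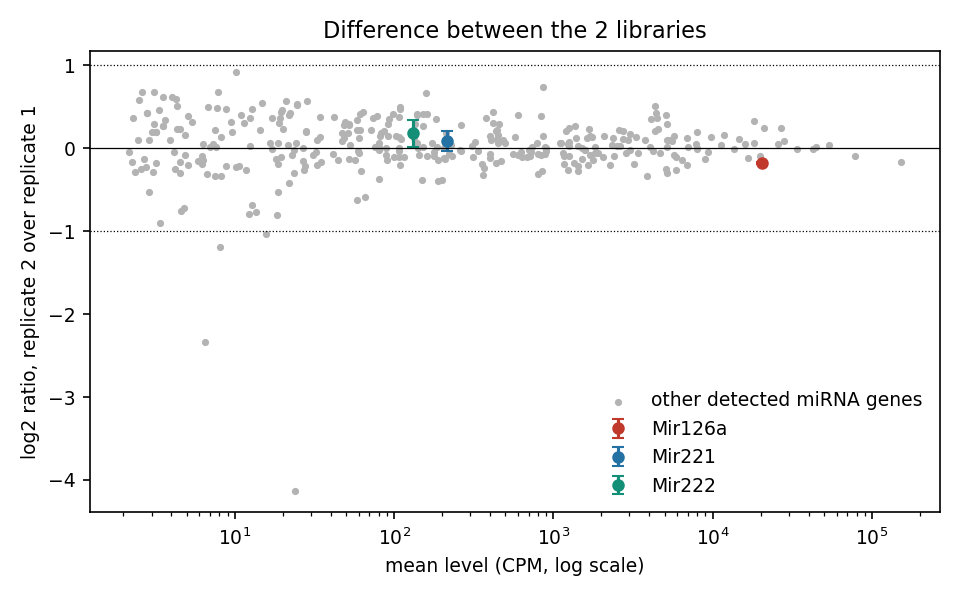
Log2 ratio of replicate 2 over replicate 1 against mean level in CPM (log scale) for the 361 detected genes; bars on the 3 named genes are 95% exact binomial intervals and dotted lines mark a log2 ratio of 1 and -1. Mir126a lies at -0.17, Mir221 at 0.09 and Mir222 at 0.18, within the band of the other genes.

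Other miRNAs known from vessels gave the setting of Mir126a. Of 30 genes of a vascular and endothelial list, 28 were counted and all 28 were detected, with Mir18a and Mir92a-1 under the symbols Mir18 and Mir92-1 that the annotation gives them. The other 2 are Mir126b and Mir24-1, which have no line of their own. Mir126a was number 5 of them by level, below Mir10a (44729 ± 372 CPM; SD, n = 2, as for the values that follow), Mir23b (26684 ± 3171 CPM), Mir130a and Mir17, and held 9.67% ± 1.05 of the list's counts. Mir221 and Mir222 were numbers 20 and 22. Most of these miRNAs are made in many cell types, and the precursors of Mir23a, Mir23b, Mir27a, Mir27b, Mir24-2, Mir19b-1, Mir92-1, Mir146, Mir218-1 and Mir218-2 share 20 nt or more with another, so their levels are uncertain. The list's median level was 1290 CPM, against 139 CPM over all detected genes. None of the 28 was called between the libraries, against 1.11% of detected genes. By adjusted p alone 9 of the 28 were higher in replicate 2, against 24.7% of detected genes, and 4, among them Mir126a, were lower, against 17.5%. The list's median log2 ratio was 0.03 against 0.04 over all detected genes.

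Of 7 miRNA genes known to target Kit, all were detected. Mir494, of the imprinted Dlk1-Dio3 cluster, led at 440 ± 24.6 CPM, Mir221 and Mir222 came next, and Mir218-2 followed at 79.98 ± 2.62 CPM. Mir221 held 23.0% ± 0.14 of the list's counts and Mir222 14.0% ± 0.56. The precursors of Mir218-1 and Mir218-2 share 20 nt or more, so the list's total and these shares are uncertain. The list totalled 905 CPM in replicate 1 and 969.9 CPM in replicate 2, below Mir126a alone in both libraries. None of the 7 was called, against 1.11% of detected genes. By adjusted p Mir494 alone passed, higher in replicate 2 as were 24.7% of detected genes. The list's median log2 ratio was 0.09 against 0.04 over all detected genes.

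**Figure D5:**
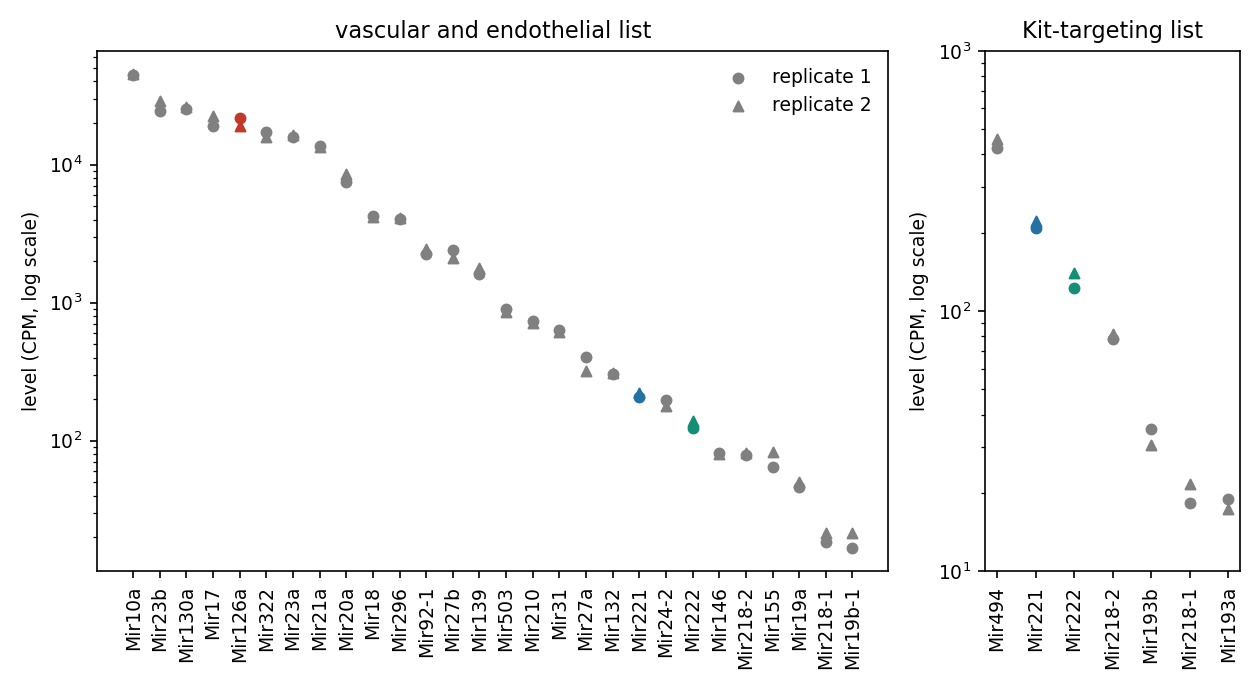
Level in CPM (log scale) of each detected gene of the vascular and endothelial list and of the Kit-targeting list; circles are replicate 1, triangles replicate 2, and the 3 named genes are in colour. Mir126a is number 5 of 28 in the first list, and Mir221 and Mir222 follow Mir494 in the second.

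Markers of other cell types were set beside Mir126a, the sole endothelial marker counted. Mir126a was 7.62-fold lower than the smooth muscle markers Mir143 and Mir145a together, a log2 ratio of -2.93 ± 0.0067 (SD, n = 2). Most of that sum was Mir143, at a mean of 152490 CPM, whereas Mir145a, at 2839 CPM, lay below Mir126a. Mir126a was 2.04-fold lower than the 5 epithelial genes of the Mir200 family together, at -1.03 ± 0.12. Each of the 5 alone had a lower mean than Mir126a, the highest being Mir429 at 19907 CPM, whose values overlapped those of Mir126a. Mir126a was 40.3-fold higher than the leukocyte markers Mir223 and Mir150 (5.33 ± 0.16) and 115-fold higher than the erythroid markers Mir451a and Mir144 (6.84 ± 0.50). The leukocyte marker Mir142 has no line of its own, but it lies on the strand opposite to Mir142b, whose counts, 2484 in replicate 1 and 2091 in replicate 2, were all on that opposite strand. With these counts added to the leukocyte markers, a choice made after the data were seen, Mir126a was 20.8-fold higher (a log2 ratio of 4.38 ± 0.09). Mir223 and Mir150 together were at 496 CPM in replicate 1 and 516 CPM in replicate 2, and with the counts opposite to Mir142b the leukocyte total was 992 and 962 CPM, so the order of the libraries turns on that choice. Most of the first total was Mir223, at 483 and 505 CPM, whereas Mir150 was at 12.8 and 10.7 CPM. Erythroid markers totalled 147 and 213 CPM, of which Mir451a, at 122 and 194 CPM, was higher in replicate 2 and Mir144, at 25.2 and 18.8 CPM, was not. Mir126a was lower in replicate 2. The SDs of these ratios do not cover an error shared by both libraries. Sequence shared with other precursors was not checked for Mir143, Mir145a and Mir150, which the RefSeq table does not hold under these symbols. The part of any cell type in the level of Mir126a was not tested.

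The strand of the reads was then compared for the 3 genes, from the columns that count each strand. All 1045 and 1038 counts of Mir221 and all 616 and 653 counts of Mir222 were on the annotated strand. For Mir126a 108122 of 108164 counts were on its own strand in replicate 1 (99.96%; exact 95% interval 99.95 to 99.97) and 89648 of 89687 in replicate 2 (99.96%; 99.94 to 99.97). The opposite strand is annotated with a further miRNA gene, Mir126b, on chromosome 2 at 26591363 to 26591420, which is not among the genes counted. Its 5p miRNA overlaps miR-126a-3p on the other strand by 19 nt.
miR-126b-5p: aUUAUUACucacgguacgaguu
miR-126b-3p: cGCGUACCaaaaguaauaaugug
Neither sequence has the seed of miR-126a-3p.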

How the data were processed

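MicroRNA sequencing of 2 embryonic stomach libraries was analysed from the deposited counts per gene, 1 table per library. Per the file text deposited with them, the authors derived these counts from an alignment to mm10 with GENCODE M4. Which aligner and which counting software made them is not given in the sources used here. From the values, each table gives counts of both strands, of the own strand and of the opposite strand. Both strands were used, as deposited, and 4 lines that name no gene were left out, namely unmapped reads (12.5% and 13.5% of reads in replicates 1 and 2), reads that map to several places (27.8% and 27.4%), reads outside genes (2.50% and 2.32%) and ambiguous reads. A miRNA with several genomic copies can thus be undercounted.

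Symbols and places come from GENCODE M21 on the same assembly (1894 of 1973 genes matched), and miRNA sequences from RefSeq (GRCm38.p6), in which the 3 genes and Mir126b were matched by symbol. The members, lists and tests were chosen with earlier results of these data known. Genes named are the members, the 2 nearest in level on either side, genes with a member's seed or on its opposite strand, and up to 4 leading genes of each list. With 1 group no contrast between conditions exists. The exact test asks whether the 2 libraries differ beyond counting error, and it has no term for the spread between replicates. The test between libraries was checked on simulated counts with counting error alone and a known scaling. That check does not cover a spread beyond counting error, as Mir126a had between these libraries. Tools were Python 3.11.15 with scipy 1.17.1, and R 4.3.3 with edgeR 4.0.16 (TMM factors) and DESeq2 1.42.0 (size factors). The alternatives were own-strand counts, other scalings, a lower count minimum, a pseudocount of 1 and each library alone.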

Additional observations from a re-analysis of the deposited data

Results flagged for a closer look

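Counts on the strand opposite to Mir126a stood above the 3 counts that a count of 0 allows. No comparison of levels used these counts on their own. There were 42 in replicate 1 and 39 in replicate 2, which are 0.0388% and 0.0435% of the counts of Mir126a. Over 3 opposite-strand counts in both libraries were found for 15 of 361 detected genes (4.16%), and 323 had none in either library. Some of the 15, Mir142b among them, had all of their counts on the opposite strand. The share thus mixes unlike cases and is not a like background for Mir126a. The strand holds the gene Mir126b, and whether these reads are its miRNAs was not tested.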

How the results depend on the processing

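Levels follow the total they are divided by. Without the 5 most abundant genes in the total, Mir126a was at 32489 CPM, Mir221 at 343 CPM and Mir222 at 209 CPM, and with the reads that map to several places added to the total they were at 13726, 145 and 88.4 CPM. The ratios between the 3 genes do not depend on the total. They moved by less than their SD with own-strand counts and with a pseudocount of 1. With 2 libraries, leaving one out cannot move a mean beyond the SD, so it says nothing about stability. Between the libraries, the log2 ratio of Mir221 was -0.0032 with DESeq2's size factors in place of 0.09. Mir126a stayed lower in replicate 2 and Mir222 higher, under every scaling tried, and neither was called. The number of genes called was 4, and 7 when genes of a single count in each library were let in, so that more genes were tested. The match to bases 2 to 7 followed by A was searched after the first result was seen. With it, 2 of the 5 genes looked at for miR-126a-3p held a match in place of 0. For miR-221-3p 7 of 7 did, in place of 6. Of all 3′ UTRs searched, 0.733% held this match for miR-126a-3p and 10.7% for miR-221-3p. These shares were not matched for length, and enrichment was not tested. Mir126a exceeded the leukocyte markers by a log2 ratio of 4.38 in place of 5.33 once the counts opposite to Mir142b were added. The 2 libraries limit every spread given here.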
